A study of Mus musculus with 24 samples.

Results

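The tumour necrosis factor (TNF) superfamily is a set of cytokine ligands, most of them anchored in the membrane as trimers, and of the receptors that bind them. Members were the genes of the deposited count table whose symbol begins with Tnfsf or Tnfrsf, together with Tnf, Lta, Ltb, Ltbr, Fas, Fasl, Cd40, Cd40lg, Cd27 and Cd70. The rule found 43 of the 78298 genes listed: 17 ligands, 24 receptors, the readthrough gene Tnfsfm13 and the antisense gene Tnfsf13os. Of the receptors, 5 carry a death domain, 15 are other signalling receptors and 4 are grouped as decoys. Livers of 18 steatohepatitis model mice and of 6 normal control mice were profiled by messenger RNA sequencing, with 1 library per mouse. The labels give neither the diet or agent that made the model nor the strain, sex, age and duration, so the groups are known as model and control alone.

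Receptors with a death domain, such as those for TNF, Fas ligand and TRAIL, can assemble a caspase-activating complex. The other signalling receptors recruit TRAF adaptors and drive the classical or the alternative NF-κB pathway, and decoys bind ligand without passing the signal on. In liver, TNF and Fas signalling are known for their part in hepatocyte death, the lymphotoxin beta receptor for lymphoid and regenerative programmes, and the TWEAK receptor FN14 for progenitor cell growth.

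Library totals lay between 31.6 M and 58.4 M counts, and 3 counts stood for 0.0514 to 0.0949 CPM (counts scaled to a common library total of 1 M), so many family genes were measured near the limit of counting. Hepatocyte markers were the most abundant of the cell type lists in every library. Model mouse 10 stood apart from the rest of its group, with a median correlation to the other model libraries of 0.972, where the next lowest library of either group had 0.978. An index of circadian clock genes (mean z-score of Bmal1, Clock, Npas2, Nfil3 and Cry1 minus that of genes of the opposite phase such as Dbp, Per2 and Nr1d1) lay between -1.23 and 0.0991 in model mice and between 1.28 and 3.6 in controls 1 to 5. Control 6 had -1.4 and thus lay on the side of the model mice, unlike the other controls. The index and the group can be told apart only through this control and the spread of the index within each group. Values with the index as a covariate are given where they end a call or move it.

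In the model livers most of the family was higher and no member was called lower, a call made for 28.8% of all genes. Of 43 members, 30 passed the filter on low counts, and 26 of these were called higher, against 31.2% of all 17456 genes tested (edgeR quasi-likelihood F test at an adjusted p below 0.05). The median log2 fold change was 1.36 over the 30 members and 0.01 over all genes tested. Of all genes, 5445 were higher and 5035 lower, a split that became 9406 and 1562 with library totals alone, where 29 members were called higher. At least 2-fold higher were 20 members, against 16.3% of all genes. Low genes of this tissue went up more often in general, at 42.3% of tested genes with a mean below 2 CPM, or 30.1% when at least 2-fold was required. Of the members at that level 19 of 20 were called higher, and of the members at 2 CPM or more 7 of 10, against 25.8% of all genes at such levels. The filter keeps a gene that is high in either group, and 10 of the tested members averaged below 0.25 CPM in controls, so these counts describe the genes that were measurable and not the whole family. The 13 members that did not pass the filter are given by their counts further on. In whole tissue, more cells of a type and more RNA per cell cannot be told apart.

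**Figure D1:**
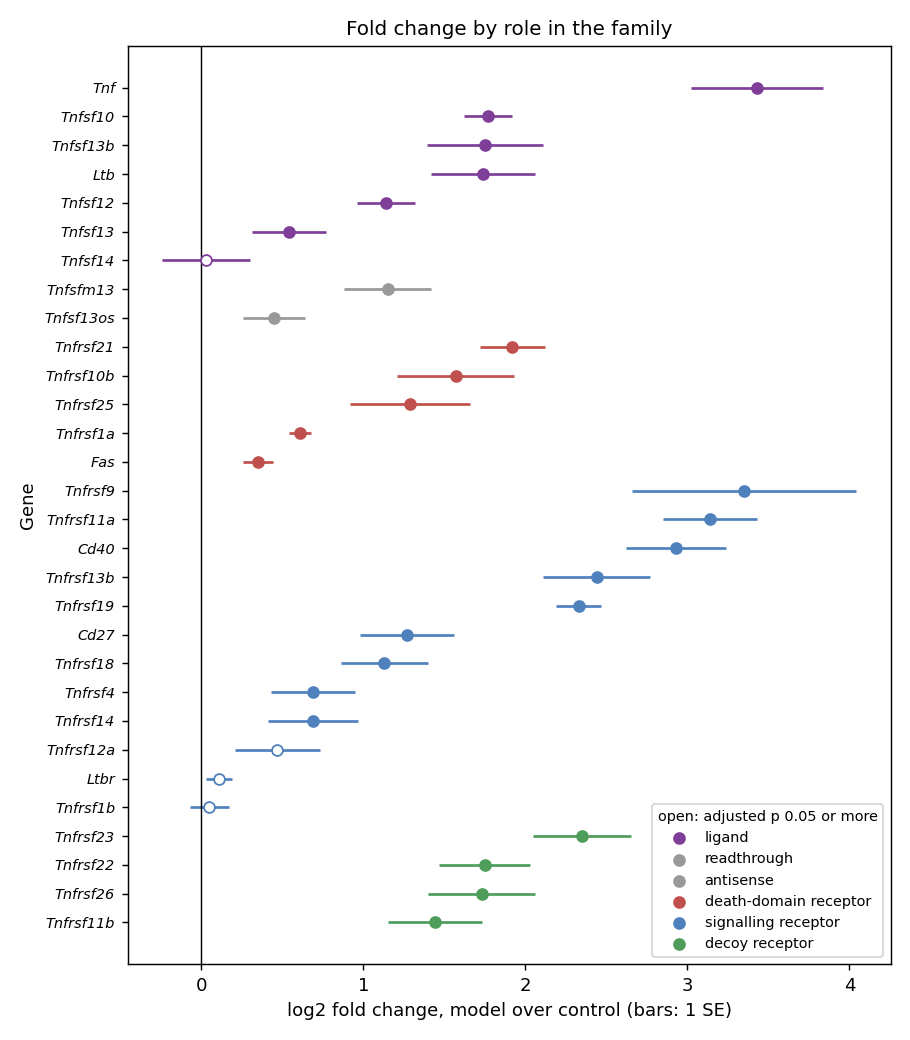
Log2 fold change of model over control livers (x axis, with 1 SE) for the 30 members tested, in blocks by role (y axis). Filled points were called at an adjusted p below 0.05. Tnf, Tnfrsf9 and Tnfrsf11a lie above 3, while Tnfsf14, Tnfrsf12a, Ltbr and Tnfrsf1b are open.

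No ligand and no receptor was called lower. Among ligands 7 of 17 were tested, 6 were called higher and the median log2 fold change was 1.74. Among receptors 21 of 24 were tested and 18 called higher, with a median of 1.44. All 5 death-domain receptors were tested and called higher, with a median of 1.29, as were all 4 decoys, with a median of 1.74. The remaining signalling receptors had 9 of 12 tested genes called higher, with a median of 1.20. Over all genes tested the median was 0.01, with 31.2% called higher, or 42.3% of those with a mean below 2 CPM. The difference between the medians of the roles was not tested.

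Tnf, the cytokine gene that names the family and is made chiefly by macrophages and other myeloid cells, had the largest change among the ligands tested. It measured 0.222, 0.726 and 1.25 CPM in model livers (lowest, median and highest of 18), against 0, 0.0330 and 0.149 CPM in controls (6). The groups did not overlap, as for 9.66% of all genes tested in the upward direction, where 6.03% lay wholly below controls and no member did. Model mouse 10 was the lowest of its group and mouse 15 the highest. The log2 fold change was 3.43 (SE 0.41, adjusted p = 6.67e-08), and 5.12 (SE 0.70) with the clock index as a covariate. Both values rest on 13 control counts in all, over 5 of the 6 control libraries, so their size is uncertain. Tnf (chromosome 17, 35418357 to 35420983, GRCm39) lies between Ltb (35413415 to 35415296) and Lta (35422141 to 35424327), the genes of lymphotoxins beta and alpha. Ltb measured 0.528, 0.911 and 2.14 CPM in model livers, against 0.135, 0.366 and 0.461 CPM in controls, again with no overlap. Its log2 fold change was 1.74 (SE 0.32, adjusted p = 4.22e-05), or 2.45 (SE 0.57) with the clock index. Lta did not reach the filter, with 46 counts over 12 model libraries and 4 counts over 3 control libraries, a ratio of 2.88 with an exact 95% counting interval from 1.05 to 11.0.

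Tnfsf10 encodes TRAIL, which in mouse binds the death-domain receptor of Tnfrsf10b and several decoys. It measured 3.49, 5.15 and 6.84 CPM in model livers, against 1.19, 1.58 and 1.61 CPM in controls. Every model mouse was above every control, and the spread among controls was small, with a mean of 1.50 ± 0.166 CPM (SD, n = 6) beside 5.12 ± 1.02 CPM in model mice (SD, n = 18). The log2 fold change was 1.77 (SE 0.15, adjusted p = 2.42e-10). Tnfsf13b, the gene of the B cell survival factor BAFF, measured 0.167, 0.621 and 1.16 CPM in model livers, against 0.0881, 0.190 and 0.319 CPM in controls. Of the 18 model mice, 16 were above all controls, and mouse 10 was again the lowest. Its log2 fold change was 1.75 (SE 0.36, adjusted p = 0.000165). Markers of B cells moved alongside: 4 of 4 were called higher, with a summed level from 1.91 to 6.35 CPM in model livers and from 0.933 to 2.23 CPM in controls, and their part in the result was not tested.

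Tnfsf12, which encodes TWEAK, the ligand of the FN14 receptor, was the most abundant ligand. It measured 3.67, 7.66 and 11.7 CPM in model livers, against 2.64, 3.13 and 4.69 CPM in controls. Only mouse 10 of the model group fell within the control range. The log2 fold change was 1.14 (SE 0.18, adjusted p = 3.86e-06). Tnfsf12 shares 48.3% of its exon length with the readthrough gene Tnfsfm13, and Tnfsf13 shares 60.0% of its own, so reads of these 3 genes may have been split between them. For Tnfsfm13 the log2 fold change was 1.15 (SE 0.27, adjusted p = 0.000693). Tnfsf13, the gene of the plasma cell factor APRIL, had 0.54 (SE 0.23, adjusted p = 0.0483), a call lost under most alternatives, among them DESeq2 (adjusted p = 0.0815) and the clock index (0.27, adjusted p = 0.593). The antisense gene Tnfsf13os, which overlaps Tnfsf13 on the other strand, had 0.45 (SE 0.19, adjusted p = 0.0435) and -0.07 with the clock index (adjusted p = 0.877). No step that marks the strand is named, so its reads cannot be told apart from those of Tnfsf13 where the exons overlap. The same holds for 69 bases that it shares with Senp3, a gene with 33690 counts beside 604 for Tnfsf13os over all libraries. Tnfsf14, the gene of LIGHT, a ligand of HVEM and of the lymphotoxin beta receptor, was the ligand tested and not called, at 0.304 ± 0.126 CPM in model livers and 0.300 ± 0.0424 CPM in controls (log2 fold change 0.03, SE 0.27, adjusted p = 0.922). Its model mice spread to both sides, with 6 above and 7 below all controls, and the sign of its change turned with the clock index (-0.03) and limma-voom (-0.08).

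**Figure D2:**
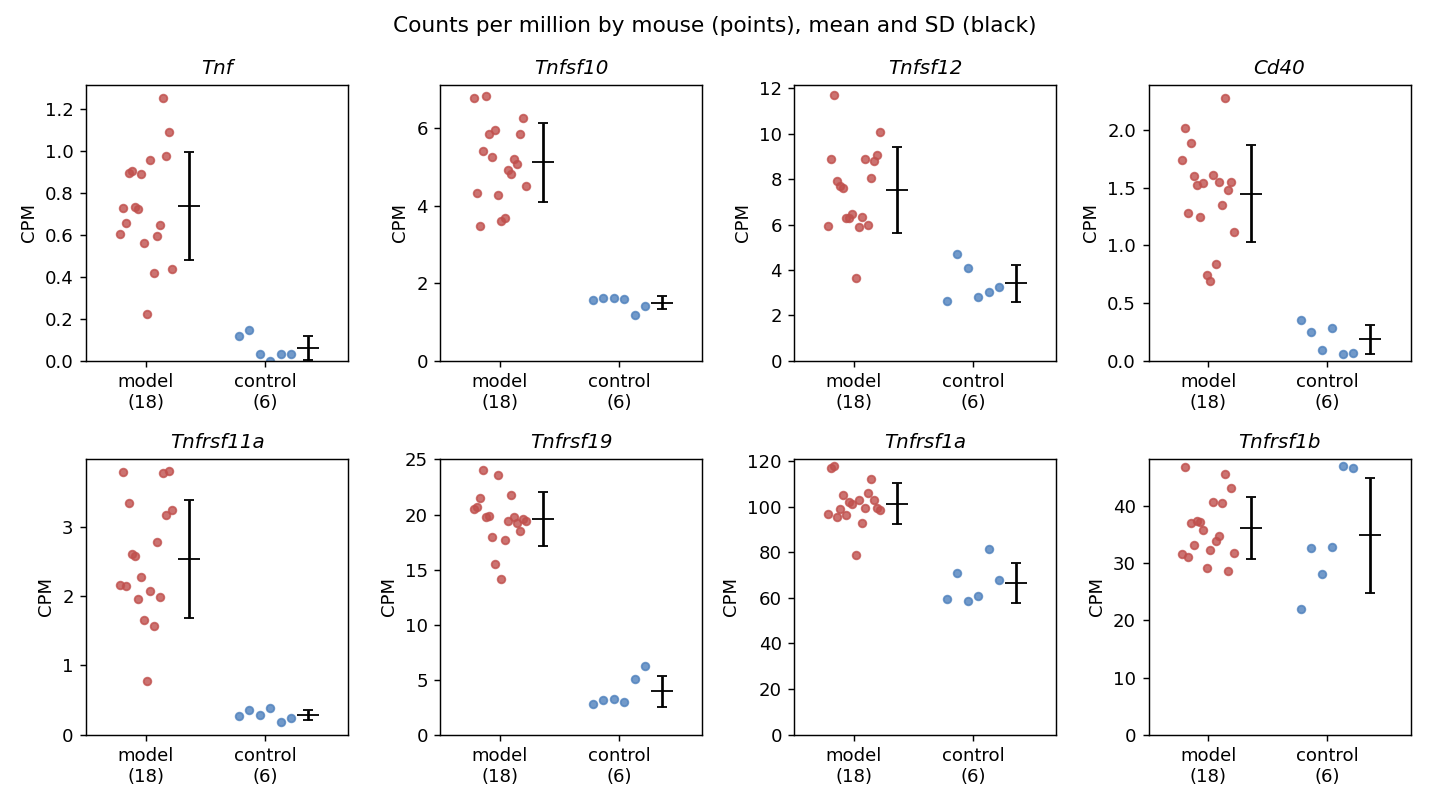
CPM (y axis) of 8 members in each of 18 model mice (left, red) and 6 control mice (right, blue), with the mean and SD in black. Tnf, Tnfsf10, Cd40, Tnfrsf11a and Tnfrsf19 do not overlap between the groups, while Tnfrsf1b overlaps throughout.

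The 10 ligands that did not pass the filter, Lta among them, were near the limit of counting. Tnfsf8, the gene of CD30 ligand, had 97 counts over 18 of 18 model libraries and 0 over the 6 controls. Its ratio was 8.11 when the controls are set to 3 counts in all. Tnfsf15, the gene of TL1A, had 151 counts over 18 model libraries and 2 over controls, a ratio of 18.9 (95% counting interval 5.15 to 158). Tnfsf9, the gene of 4-1BB ligand, had 91 counts over 18 model libraries and 5 over 4 control libraries, a ratio of 4.56 (1.89 to 14.4). Tnfsf18, the gene of GITR ligand, had 33 counts over 15 model libraries and 0 in controls, a ratio of 2.76 with controls set to 3 counts. For the Fas ligand gene Fasl, 144 counts in model and 21 in control livers gave a ratio of 1.72 (1.08 to 2.86), and for the CD40 ligand gene Cd40lg, 66 and 8 counts gave 2.07 (0.991 to 4.99). Tnfsf11, the gene of RANK ligand, had 13 counts in model livers and 0 in controls, a ratio of 1.09 with controls set to 3 counts. Tnfsf4, the gene of OX40 ligand, had 9 counts in model livers and 0 in controls, and Cd70 had 2 and 0, too few for a fold. These intervals cover counting error over pooled libraries and not the spread between mice. The ratios with controls set to 3 counts have no interval and are not lower bounds. For Tnfsf11, with 13 counts, no difference can be read.

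Sequence around the start of the gene was available from RefSeq (GRCm38.p6, an earlier build than that of the counts) for 32 of the 43 members, as windows of 300 bases that lie mostly before the start and run a short way past it. An NF-κB motif (GGG, any 2 bases, then TTTCC), searched on both strands, stood in 1.63% of 32851 windows of all genes, and in 3 of the 36 windows of members. These 3 windows are shown because they hold it and belong to members called higher in model livers, with the motif in capitals (for Ltb and Tnfrsf25 it lies on the other strand and is shown as its reverse complement).
Ltb chr17:35194257-35194556, plus strand, motif at -87: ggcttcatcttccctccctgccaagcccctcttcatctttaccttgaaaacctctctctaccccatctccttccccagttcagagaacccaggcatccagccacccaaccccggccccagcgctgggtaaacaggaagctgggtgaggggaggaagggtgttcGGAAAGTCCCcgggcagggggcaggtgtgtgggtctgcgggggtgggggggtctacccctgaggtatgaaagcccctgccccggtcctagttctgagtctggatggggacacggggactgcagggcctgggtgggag
Tnfrsf25 chr4:152115684-152115983, plus strand, motif at -218: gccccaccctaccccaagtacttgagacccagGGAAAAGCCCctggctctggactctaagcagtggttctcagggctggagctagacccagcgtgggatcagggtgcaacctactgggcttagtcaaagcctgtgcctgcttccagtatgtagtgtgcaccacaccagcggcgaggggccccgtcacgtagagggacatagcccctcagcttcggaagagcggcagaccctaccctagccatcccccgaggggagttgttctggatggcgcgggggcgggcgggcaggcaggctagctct
Tnfrsf9 chr4:150927749-150928048, plus strand, motif at -43: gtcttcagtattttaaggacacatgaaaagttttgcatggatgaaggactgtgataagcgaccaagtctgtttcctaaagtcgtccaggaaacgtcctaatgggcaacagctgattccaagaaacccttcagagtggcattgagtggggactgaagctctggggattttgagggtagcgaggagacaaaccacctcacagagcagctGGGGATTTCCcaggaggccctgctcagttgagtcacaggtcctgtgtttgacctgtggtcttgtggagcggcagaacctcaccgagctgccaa
Tnfrsf25 and Tnfrsf9 each have another window that lacks the motif. The letters describe these windows only, and a match is not a measured binding site. The E-box CACGTG, a motif of clock factors, stood in 7.15% of all windows and in 6 of the 36 windows of members.

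Death-domain receptors split into abundant genes with small changes and less abundant genes with larger ones. Tnfrsf1a (chromosome 6, 125326325 to 125339447), which encodes TNFR1, the receptor that carries most inflammatory and lethal TNF signals, measured 78.9, 100 and 118 CPM in model livers, against 58.8, 64.2 and 81.6 CPM in controls. Of 18 model mice, 17 were above all controls, and the log2 fold change was 0.61 (SE 0.07, adjusted p = 9.09e-08), a 1.52-fold difference. Fas, the Fas ligand receptor gene, averaged 28.6 ± 3.72 CPM in model livers and 22.4 ± 2.86 CPM in controls, and the log2 fold change was 0.35 (SE 0.09, adjusted p = 0.00124). Tnfrsf21, the gene of death receptor 6, measured 4.17, 9.62 and 13.8 CPM in model livers, against 1.59, 2.44 and 3.65 CPM in controls. It was the death-domain receptor whose groups did not overlap, and its log2 fold change was 1.92 (SE 0.20, adjusted p = 6.97e-09).

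Tnfrsf10b, which encodes the mouse TRAIL death receptor, measured 0.333, 0.985 and 1.91 CPM in model livers, against 0.161, 0.330 and 0.629 CPM in controls. Of 18 model mice, 15 were above all controls, and the log2 fold change was 1.57 (SE 0.36, adjusted p = 0.000459). Tnfrsf25, the gene of death receptor 3, which binds TL1A, measured 0.232, 0.371 and 0.972 CPM in model livers, against 0.117, 0.135 and 0.405 CPM in controls. Mouse 10 was here the highest of the model group and control 6 the highest of the controls. Its log2 fold change of 1.29 (SE 0.37, adjusted p = 0.00403) was 0.72 with the clock index (adjusted p = 0.268), which ends the call.

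Among the other signalling receptors, 7 of 12 tested were called at least 2-fold higher, Tnfrsf11a, Cd40 and Tnfrsf13b among them. Tnfrsf11a (chromosome 1, 105708443 to 105775709), the gene of RANK, which drives osteoclast formation from myeloid precursors, measured 0.778, 2.42 and 3.80 CPM in model livers, against 0.189, 0.277 and 0.390 CPM in controls. Its log2 fold change was 3.14 (SE 0.29, adjusted p = 1.87e-09). Cd40 (chromosome 2, 164897547 to 164914868), the co-stimulatory receptor gene of B cells, dendritic cells and macrophages, measured 0.694, 1.53 and 2.28 CPM in model livers, against 0.0629, 0.172 and 0.352 CPM in controls. Its log2 fold change was 2.93 (SE 0.31, adjusted p = 1.61e-08), and 4.13 (SE 0.53) with the clock index. For both genes the groups did not overlap, and mouse 10 was the lowest model mouse. Tnfrsf13b, the gene of TACI, a receptor of BAFF and APRIL on B cells, measured 0.222, 1.09 and 1.48 CPM in model livers, against 0.117, 0.170 and 0.252 CPM in controls. Mouse 10 alone lay within the control range, and the log2 fold change was 2.44 (SE 0.33, adjusted p = 5.49e-07). The other BAFF and APRIL receptor genes were low: Tnfrsf13c (BAFFR) had 108 counts in model and 12 in control livers, a ratio of 2.26 (1.24 to 4.50), and Tnfrsf17 (BCMA) 22 and 4 counts, a ratio of 1.38 (0.468 to 5.50).

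Macrophage markers moved with these receptors. All 5 on the list were called higher, with a summed level from 104 to 513 CPM in model livers and from 17.5 to 40.9 CPM in controls. Dendritic cell markers, 4 of 4 called higher, summed to 2.73 to 7.21 CPM in model livers and to 1.01 to 2.46 CPM in controls. No marker of these lists was at 0 in all controls, and the part of these cells in the receptor values was not tested. Not every marker list rose. Called higher were 3 of 3 tested neutrophil markers, 3 of 4 endothelial, 1 of 2 NK cell, 0 of 4 cholangiocyte and 0 of 1 plasma cell markers. All 4 hepatocyte markers were called lower. Over all genes tested, 31.2% were called higher.

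Tnfrsf19, the gene of TROY, an orphan receptor without a death domain, combined a large change with a high level. It measured 14.1, 19.7 and 24.0 CPM in model livers, against 2.82, 3.21 and 6.22 CPM in controls. Its log2 fold change was 2.33 (SE 0.14, adjusted p = 9.57e-13), or 1.84 (SE 0.17) with the clock index. Among controls, control 6 was the highest. The SD of its log2 CPM was 0.19 over the 18 model mice and 0.46 over the 6 controls. The median SD was 0.25 in model mice and 0.35 in controls for the 10 members with a mean of 2 CPM or more, and 0.19 and 0.22 in model and control mice for all genes at such levels.

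Receptors of T cell co-stimulation were low and mostly higher in model livers. Tnfrsf9, the gene of 4-1BB, had 144 counts over 18 model libraries and 3 over the 6 controls, a ratio of 12.0 (95% counting interval 4.04 to 59.0). Its fitted log2 fold change of 3.35 (SE 0.69, adjusted p = 0.000164) was 2.60 with limma-voom and 4.03 with the clock index, and rests on those 3 control counts. It no longer passed the filter with thinned counts or without model mouse 2, 8, 13, 15, 16 or 17. Tnfrsf8, the gene of CD30, had 77 and 4 counts, a ratio of 4.83 (1.81 to 18.2). Cd27, the receptor of CD70, averaged 0.429 ± 0.135 CPM in model livers and 0.181 ± 0.110 CPM in controls, and its log2 fold change was 1.27 (SE 0.29, adjusted p = 0.000591). Tnfrsf18, the gene of GITR, had 1.13 (SE 0.27, adjusted p = 0.000729), or 2.09 (SE 0.44) with the clock index. It shares 35.9% of its exon length with Gm16008 on the other strand, which had 1711 counts beside its own 600 over all libraries, so its reads are uncertain. Tnfrsf4, the gene of OX40, was called at 0.69 (SE 0.26, adjusted p = 0.0244), a call lost with the clock index (adjusted p = 0.0781) and without control 1 (0.0809), control 3 (0.0886) or control 6 (0.0502). T cell markers, 6 of 6 called higher, summed to 2.06 to 10.5 CPM in model livers and to 1.76 to 2.91 CPM in controls, with 16 of 18 model mice above all controls. Their part in these receptor values was not tested.

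Tnfrsf14, the gene of HVEM, lay on both sides of the controls in model mice. It measured 0.600, 2.23 and 3.88 CPM in model livers, against 0.912, 1.30 and 1.60 CPM in controls. In model mice 3, 13, 16 and 18 it lay between 0.600 and 0.976 CPM, and in the other 14 at 1.73 CPM or more, above every control. The log2 fold change of 0.69 (SE 0.28, adjusted p = 0.0384) thus averages over both sets of mice. The call was lost, among other settings, with the clock index (adjusted p = 0.128), limma-voom (0.140) and without control 1, 2, 3 or 6 or model mouse 6 or 17.

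The most abundant signalling receptors without a death domain did not pass the test. Ltbr, the lymphotoxin beta receptor gene, measured 87.5, 105 and 145 CPM in model livers, against 80.3, 94.6 and 117 CPM in controls (log2 fold change 0.11, SE 0.08, adjusted p = 0.262). It lies on chromosome 6 beside Tnfrsf1a, at 125283534 to 125290848. Tnfrsf1b, the gene of TNFR2, the TNF receptor without a death domain, averaged 36.2 ± 5.43 CPM in model livers and 34.9 ± 10.1 CPM in controls (log2 fold change 0.05, SE 0.12, adjusted p = 0.731). Its controls ran from 22.0 to 47.1 CPM and held all 18 model values. Tnfrsf12a, the gene of FN14, averaged 23.7 ± 9.97 CPM in model livers and 17.1 ± 4.76 CPM in controls (log2 fold change 0.47, SE 0.26, adjusted p = 0.125). Its model mice ranged from 10.5 CPM in mouse 10 to 42.6 CPM in mouse 13, with 7 of 18 above all controls. With library totals alone, a scaling under which the median of all genes is 0.34, these 3 genes were called higher at 0.44, 0.39 and 0.82, close to that median for Ltbr and Tnfrsf1b. Ltbr was also called with upper-quartile factors, at 0.21 (adjusted p = 0.0331). With the clock index, Ltbr had -0.04 and Tnfrsf1b -0.22, neither called.

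All 4 decoy genes were higher. Tnfrsf23 and Tnfrsf22, decoys for TRAIL known from mouse, lie with Tnfrsf26 in a cluster on chromosome 7 from 143161396 to 143239609. Tnfrsf23 measured 0.278, 1.34 and 2.03 CPM in model livers, against 0.135, 0.253 and 0.348 CPM in controls, and its log2 fold change was 2.35 (SE 0.30, adjusted p = 2.55e-07). Mouse 10 alone of the model mice lay within the control range. Tnfrsf22 measured 0.472, 0.689 and 0.966 CPM in model livers, against 0.0322, 0.175 and 0.426 CPM in controls, without overlap (log2 fold change 1.75, SE 0.28, adjusted p = 6.16e-06), and 3.21 (SE 0.44) with the clock index. Tnfrsf26 measured 0.269, 0.849 and 1.39 CPM in model livers, against 0.0629, 0.247 and 0.411 CPM in controls (log2 fold change 1.73, SE 0.33, adjusted p = 6.40e-05). The 3 genes are close relatives, and how reads that match more than 1 of them were counted is not given in the sources used here. Tnfrsf11b, the gene of osteoprotegerin, a soluble decoy of RANK ligand and TRAIL, measured 0.779, 2.50 and 4.97 CPM in model livers, against 0.439, 1.05 and 1.44 CPM in controls. Of 18 model mice, 16 were above all controls, and its log2 fold change was 1.44 (SE 0.29, adjusted p = 0.000120), or 2.38 (SE 0.46) with the clock index. Stellate cell markers, 4 of 4 called higher, summed to 36.7 to 82.9 CPM in model livers and to 18.2 to 34.0 CPM in controls, and their part was not tested.

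Per kilobase of exon, the receptor pool was far above the ligand pool and was held by a handful of genes. The 24 receptors summed to 132 ± 11.1 CPM per kb in model livers and to 99.4 ± 11.8 in controls, and the 17 ligands to 8.01 ± 1.65 and 3.26 ± 0.526 CPM per kb in model and control livers. Ltbr took 33.8 ± 2.34% of the receptor sum in model livers and 41.3 ± 2.36% in controls, and Tnfrsf1a 29.7 ± 1.01% and 25.8 ± 0.873%. Next by level in model livers stood Fas (13.9 ± 1.81 CPM per kb), Tnfrsf12a (12.3 ± 5.16) and Tnfrsf1b (9.48 ± 1.42), and the means of Fas and Tnfrsf1b lay within 1 SD of that of Tnfrsf12a. Tnfsf12 made up 61.9 ± 5.66% of the ligand sum in model livers and 68.5 ± 5.69% in controls. Tnf made up 5.61 ± 1.68% and 1.10 ± 1.02%, and Tnfsf14 2.04 ± 0.681% and 5.12 ± 1.20%, in model and control livers. These shares describe messenger RNA and were not tested.

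**Figure D3:**
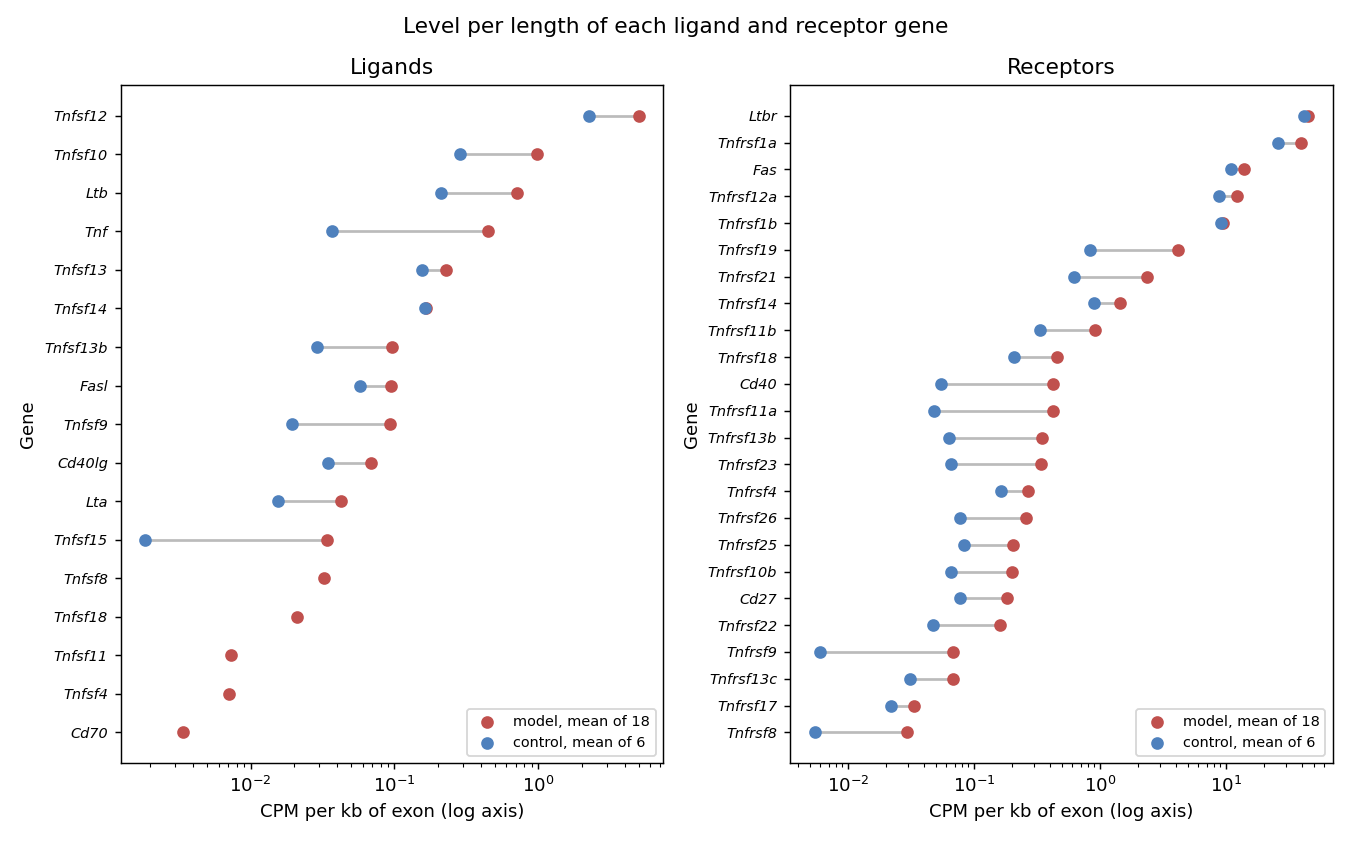
Mean CPM per kb of exon (log x axis) of each ligand gene (left) and receptor gene (right) in model livers (red, n = 18) and control livers (blue, n = 6). Ligands with no blue point had 0 counts in all controls. Tnfsf12 leads the ligands and Ltbr and Tnfrsf1a lead the receptors in both groups.

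Ratios within a mouse showed how pairs shifted against each other, since scaling between libraries cancels but for the pseudocount. Of 6 pairs tested, 5 passed, among them Tnfsf11 against Tnfrsf11b, whose numerator was too low to be read (two-sided exact permutation tests over 134596 divisions of the mice, on log2 of CPM + 0.1, adjusted over the pairs). Tnf against Tnfrsf1b had a mean log2 ratio of -5.50 ± 0.44 in model mice and -7.79 ± 0.78 in controls, a difference of 2.30 with 18 of 18 model mice above all controls (exact p = 7.43e-06, the smallest these divisions can give, adjusted 4.46e-05). The size of this difference depends on the pseudocount, since Tnf in controls had a median of 0.0330 CPM, and was 1.03 with 0.5 CPM (exact permutation, adjusted p = 0.000178). Tnfrsf1b against Tnfrsf1a, the TNF receptor without over the one with a death domain, had -1.49 ± 0.20 in model mice and -0.97 ± 0.30 in controls, a difference of -0.52 with 10 of 18 model mice below all controls (exact permutation, adjusted p = 0.000267). Tnfsf12 against Tnfrsf12a, ligand over receptor, had -1.56 ± 0.36 and -2.27 ± 0.67 in model and control mice, a difference of 0.71 with 5 of 18 model mice above all controls (exact permutation, adjusted p = 0.00538). Tnfsf13b against Tnfrsf13c differed by 0.77 (exact permutation, adjusted p = 0.0144), which did not pass without control 1 (0.0501) or control 3 (0.0739). Tnfsf11 against Tnfrsf11b differed by -1.17 (exact permutation, adjusted p = 0.00152), but Tnfsf11 was at 0 in all controls and had 13 counts in all, so this value follows Tnfrsf11b and the pseudocount.

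Tnfsf10 against Tnfrsf10b, TRAIL over its death receptor, averaged 2.25 ± 0.70 in model mice and 1.88 ± 0.67 in controls (difference 0.37, exact permutation, adjusted p = 0.267), and passed with a pseudocount of 0.5 CPM (0.64, adjusted p = 0.0140). The model mice left a gap in this ratio. In mice 2, 3, 4, 9, 13, 15, 16 and 18 it lay between 1.14 and 1.72, and in the other 10 between 2.51 and 3.12, while the controls spread from 0.83 to 2.71. Over model mice the SD of log2 CPM was 0.71 for Tnfrsf10b and 0.29 for Tnfsf10.

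**Figure D4:**
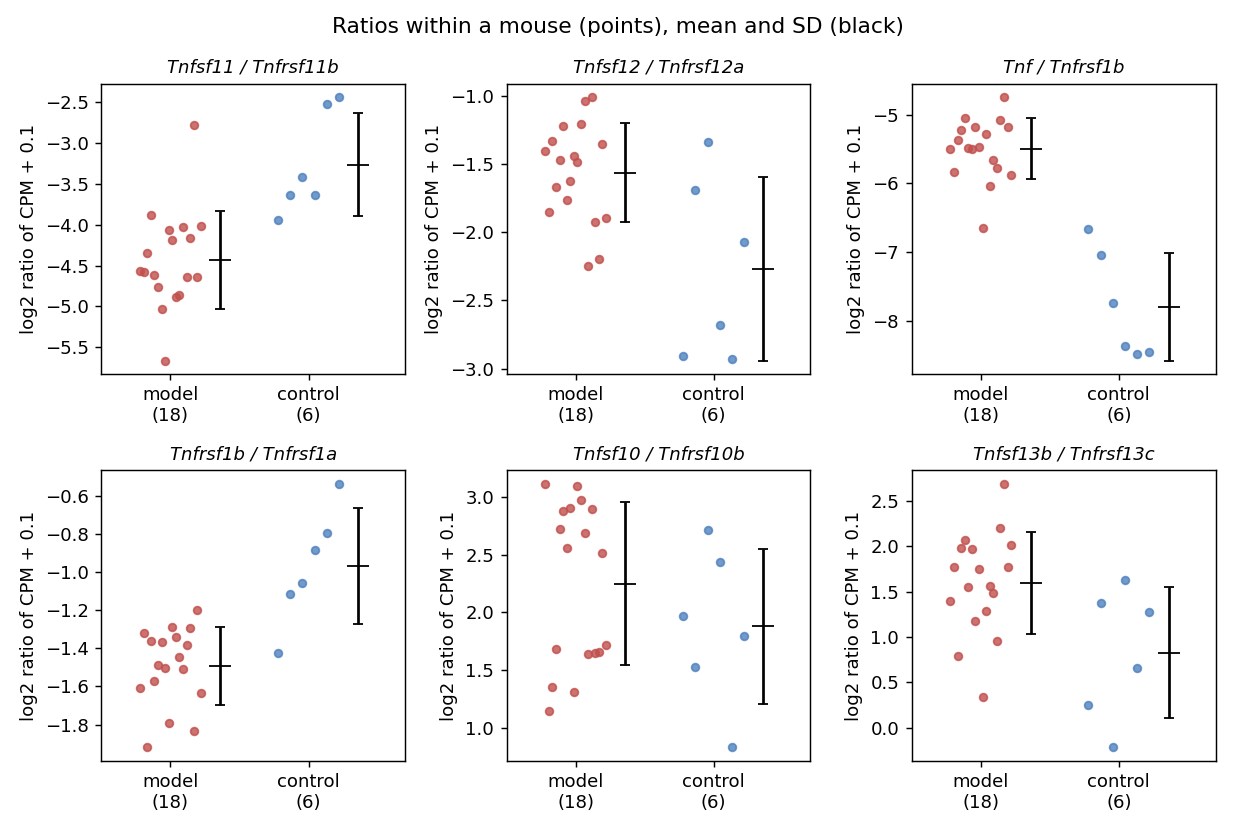
Log2 ratio of CPM + 0.1 (y axis) for 6 pairs in each of 18 model mice (left, red) and 6 control mice (right, blue), with the mean and SD in black. Model mice lie above all controls for Tnf / Tnfrsf1b, and fall on either side of a gap for Tnfsf10 / Tnfrsf10b.

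Model mice differed in the mean log2 CPM of the members tested, from 0.40 in mouse 10 to 1.50 in mouse 15, though not every member followed. Mouse 10 was the lowest of the 18 for 17 of the 30 members tested, and 14 of the 26 members called higher were above all controls in it, where the other 17 model mice had 19 to 24. Its summed macrophage, T cell, NK cell and neutrophil markers were also the lowest of the model group, at 104 CPM for macrophages, and its summed hepatocyte markers the highest, at 108027 CPM. For the B cell, plasma cell, dendritic cell, endothelial, stellate and cholangiocyte sums, another model mouse was the lowest. The part of these cells in the values of mouse 10 was not tested. Mouse 15 was the highest for 7 members. Without mouse 10, 26 members were called higher, 18 of them receptors, and without control 6, 24 members, 16 of them receptors.

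**Figure D5:**
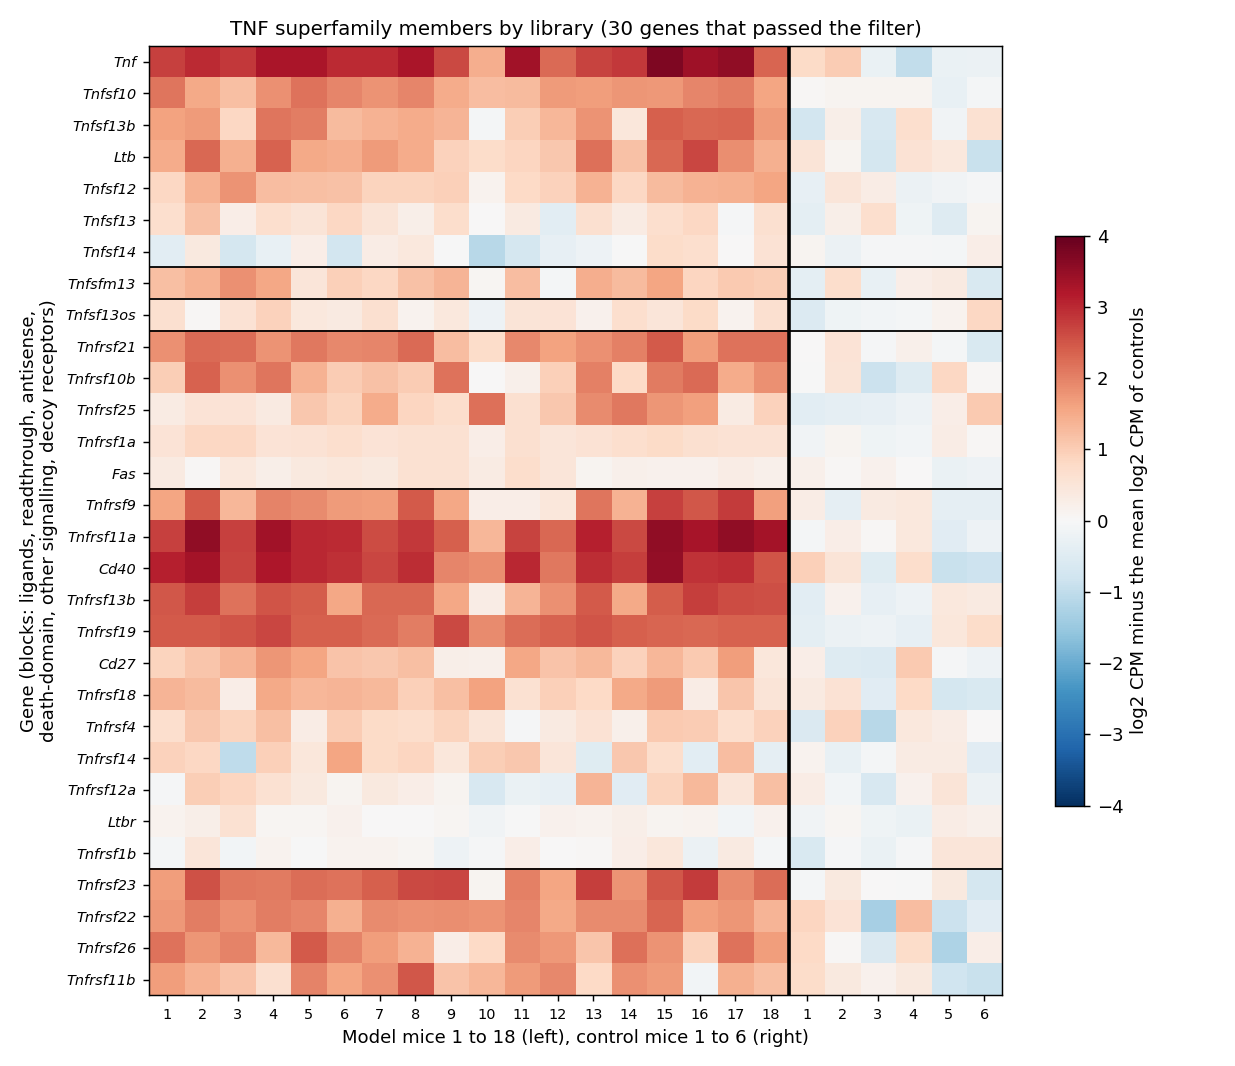
Log2 CPM minus the mean of controls (colour) for the 30 members tested (rows, in blocks by role) in model mice 1 to 18 (left of the line) and control mice 1 to 6 (right). Model mouse 10 is pale in most rows and dark in Tnfrsf25, and Ltbr and Tnfrsf1b are pale throughout.

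Other genes of the pathway were counted in 5 lists: relatives of the family, adaptors, NF-κB factors, shedding proteins and target genes. Of all genes tested, 31.2% were called higher and 28.8% lower. Of 8 relatives that the naming rule left out, 5 were tested and all 5 called higher. They include Eda2r, a receptor of ectodysplasin A2 (log2 fold change 4.42, SE 0.30), the TNF receptor homologue gene Relt (2.06, SE 0.35) and Ngfr, the low-affinity neurotrophin receptor gene (1.79, SE 0.25). Of 30 adaptors, kinases and ligases next to the receptors, 8 were called higher and 10 lower, with a median of -0.06. Traf1 (2.35, SE 0.27), an adaptor induced by NF-κB, and the necroptosis genes Ripk3 (2.11, SE 0.28) and Mlkl (1.58, SE 0.17) were higher, as were Ikbke (1.50), Traf3 (0.58), Birc2 (0.36) and Rbck1 (0.14). Map3k5 (-0.83, SE 0.08), the kinase ASK1, Tab2 (-0.70, SE 0.09), Traf4 (-0.56, SE 0.08) and Cflar (-0.36, SE 0.08), which blocks caspase-8 activation, were lower. Ripk1 (-0.26, SE 0.06) was also lower, unlike Ripk3 and Mlkl. Tradd, Fadd and Casp8, the core of the death-inducing complex, had -0.16, -0.05 and -0.06 and did not pass.

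Among 17 genes of NF-κB factors and their inhibitors, 12 were called higher and 2 lower, with a median of 0.37. The alternative pathway genes Relb (2.37, SE 0.24) and Nfkb2 (1.53, SE 0.16) and their activating kinase gene Map3k14 (0.84, SE 0.15), which is on the adaptor list, were higher. Of the classical factor genes, Nfkb1 (0.35, SE 0.08) was also higher, while Rela and Rel had -0.13 and 0.06 and did not pass. Inhibitors that NF-κB itself induces differed among themselves: Nfkbid (2.50), Tnfaip3 (2.16) and Nfkbie (1.52) were higher, while Nfkbia had -0.12 (adjusted p = 0.211). Genes of the IκB kinase subunits differed: Chuk (-0.18) and Ikbkg (-0.30) were lower, and Ikbkb (0.13, SE 0.05) was higher. Of 9 genes that release ligands from the membrane or regulate this, 3 were higher and 3 lower. Rhbdf1 (1.29, SE 0.14) and Rhbdf2 (0.46, SE 0.09), which encode carriers of the TNF-shedding protease, were higher, the protease gene Adam17 had 0.06 (adjusted p = 0.509), and Sppl2a (-0.54, SE 0.06), a protease of the TNF stalk, was lower with Furin (-0.39) and Sppl2b (-0.36). Of 25 NF-κB target genes 21 were tested, and 17 were called higher and 1 lower, with a median of 2.09. They were led by Bcl2a1d (4.90, SE 0.39), a survival gene with near-identical copies that can share reads, and by the chemokine genes Ccl2 (4.81, SE 0.38) and Cxcl1 (4.00, SE 0.34). Sod2 (-0.23, SE 0.07) was lower. Birc3 (0.08) and Selp (-0.19) did not pass. Among these targets Tnfaip3, Traf1, Nfkb2, Relb, Nfkbie, Nfkbia and Birc3 also stand on the other lists.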

How the data were processed

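Per the labels' protocols, Trizol was used to extract RNA from liver, and oligo(dT) beads to capture messenger RNA for DNA nanoball libraries. The deposited file holds raw counts for each Ensembl gene in each mouse, on GRCm39 per the submitters' processing notes. It also holds the exon length of each gene, per the file headers, here used for levels per kilobase. No aligner, counting program or strand setting is named in the sources. Symbols were found for 51498 of 78298 genes, which hold 99.6% of counts.

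Groups came from the labels, which name no batch and do not say how the mice were kept. P-values set a group difference against the spread between these mice. An effect of batch or housing that follows the group therefore cannot be told apart from that of the model. All 24 libraries and all genes entered a quasi-likelihood F test in edgeR 4.0.16 (R 4.3.3; TMM factors, robust, filterByExpr by group), adjusted by the Benjamini-Hochberg method over the 17456 genes tested. An SE is the size of the log2 fold change over the root of F. CPM values are per TMM-scaled total. TMM factors averaged 1.06 ± 0.0610 in model mice and 0.843 ± 0.0284 in controls (SD). The test was tried on simulated counts first. Counting intervals are exact at 95%, from counts pooled by group, and cover counting error alone, since no molecular identifiers are named. Ratio tests used scipy 1.17.1.

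Values by mouse are given, for each role, for up to 4 called members of at least 0.2 CPM in either group with the largest fold change and for the most abundant member. In each pathway list the 3 called genes with the largest change and those opposite to the list's median were to be named. Other genes named, the motifs and the gaps between mice were chosen after values were seen. Members and lists were chosen with earlier results of these data known. Alternatives tried were other scalings (RLE, upper-quartile, library totals), other tools (DESeq2 1.42.0, limma-voom 3.58.1), other filters (none, or 1 CPM in 6 libraries), a 0.01 threshold, thinned counts, the clock index or the replicate number as a term, a pseudocount of 0.5 CPM for ratios, and leaving out each mouse.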

Additional observations from a re-analysis of the deposited data

Results flagged for a closer look

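Among the 36 sets of 6 control values examined (the members tested and the ratios), 2 had a single value far from the rest by Dixon's test, close to the 1 in 20 that chance gives. The Tnfrsf25 level of control 6 was 0.405 CPM, where the median of controls was 0.135 CPM. Control 6 is also the control whose clock index lies with the model mice. The Cd27 level of control 4 was 0.390 CPM, where the median of controls was 0.146 CPM. Both members were also called higher without that control.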

How the results depend on the processing

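No member was called lower in any alternative run. Between 21 and 29 members were called higher under the other scalings, tools, thresholds and terms, 28 of 43 with no filter, and 15 of 18 tested with a filter of 1 CPM in 6 libraries, which also left 3 ligands called because fewer genes were tested. The share of all genes called higher moved as well. It was 23.3% with the clock index, where 21 members were called, and 53.9% with library totals alone, where 29 were. It was 14.4% with no filter and 31.4% with the filter of 1 CPM. With library totals alone, 9406 of all genes were higher and 1562 lower, against 5445 and 5035. The ratio of Tnfsf10 to Tnfrsf10b passed with a pseudocount of 0.5 CPM (0.64), and that of Tnf to Tnfrsf1b was then 1.03. Leaving out each mouse gave 23 to 26 members, 5 to 7 ligands and 16 to 18 receptors called higher, and 0.56 to 0.93 for the ratio of Tnfsf13b to Tnfrsf13c. Signs turned for uncalled values of Tnfsf14 (-0.03 with the clock index, -0.24 with the replicate block, -0.08 with limma-voom, and from -0.04 to 0.10 with each mouse left out, where -0.00, -0.02 and -0.03 also occurred). They also turned for Tnfrsf1b (-0.22 with the clock index, -0.05 to 0.15 with each mouse left out, -0.01 among them), Ltbr (-0.04) and Tnfsf13os (-0.07), both with the clock index. The cause was not tested. The calls of Tnfsf13, Tnfsf13os, Tnfrsf4, Tnfrsf14 and Tnfrsf25 missed the threshold in at least 1 alternative, and that of Tnfrsf9 was lost where it did not pass the filter. The filter of 1 CPM left 11 called members untested, Tnf among them.

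The title numbers of model and control mice share a number only, with correlations of same-numbered deviations from -0.293 to 0.0674. With the number as a replicate block, 21 members, 5 ligands, 15 receptors and 7805 of all genes were called. Model mice whose number no control shares add nothing to the group difference in that run, so it compares fewer mice. Members near 3 counts per library, chiefly ligands, are limited by depth.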
